A study of Mus musculus with 12 samples.

Results

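The cytosolic ribosomal proteins were described in TSC2-/- mouse embryonic fibroblasts (MEFs) given rapamycin or made to express PGC-1alpha. The members were genes whose symbol has the Rpl, Rplp, Rps or Rpsa form and whose probe set lists that symbol alone in the array annotation. Kinases named after a ribosomal protein, pseudogenes and 1 further small subunit symbol were left out, so the members are not all ribosomal proteins. This rule gave 49 of the 18193 genes with such a probe set, 26 of the large and 23 of the small subunit. Of the 49, 42 are core ribosomal proteins, 6 are paralogs of a core protein (Rpl3l, Rpl7l1, Rpl22l1, Rpl39l, Rps4l and Rps27l), and Rps19bp1 has the name but is no ribosome subunit. Where a gene had several probe sets, the set with the highest mean log2 intensity over the 12 arrays stood for it.

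Each cytosolic ribosome joins a small subunit, which reads the mRNA, to a large subunit, which forms the peptide bond. The mRNAs of most ribosomal proteins start with a C and a run of pyrimidines, the terminal oligopyrimidine (TOP) tract, through which mTORC1 is known to set their translation. TSC2 holds mTORC1 in check, and rapamycin inhibits mTORC1. The arrays measured mRNA abundance, not translation or protein.

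The 12 Affymetrix MOE430 v2 arrays fall into 4 groups of 3 biological replicates each, as the series' design text has it. All cells were TSC2-/- MEFs in DMEM with 10% CCS, and no cells with intact TSC2 are among the samples. The vehicle group had DMSO for 14 h and the rapamycin group 20 nM rapamycin for 14 h. The other two groups were confluent cells given adenovirus for 10 h, with GFP or with PGC-1alpha (a coactivator of mitochondrial genes), and harvested 14 h after a change of medium. The labels do not tie arrays to separate cultures, so p-values measure the spread between these arrays, and in bulk RNA fewer cells of a type cannot be told apart from less RNA per cell.

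The median intensity of an array was 77.5 to 81.0. The 10 fibroblast markers all lay above the median level of the table, with a summed intensity of 55668 to 57042 in vehicle and 57666 to 61971 in rapamycin arrays. Of the 5 leukocyte markers 2 did, with sums of 613 to 638 in vehicle and 681 to 701 in rapamycin arrays and 505 to 549 and 514 to 547 in GFP and PGC-1alpha arrays. Of 5 epithelial markers 4 lay above that median, with a summed intensity of 2222 to 2258 in vehicle, 2197 to 2277 in rapamycin, 2213 to 2405 in GFP and 2353 to 2509 in PGC-1alpha arrays. With rapamycin 5 fibroblast and 2 leukocyte markers rose, 0 of the 4 endothelial markers changed, and of the epithelial ones Krt18 (0.56 log2) and Cdh1 (0.24) rose and Krt19 (-0.40) fell. Of 4 neural markers 3 lay above the median, with sums of 773 to 834 in vehicle and 719.8 to 724 in rapamycin arrays, and 1 fell. Of 4 skeletal muscle markers 2 did, with sums of 469 to 515 and 437 to 465.5, and 1 fell. Over all probe sets 25.5% passed an adjusted p of 0.05 with rapamycin, 11.5% raised and 14.0% lowered. The part of these markers in the results was not tested. Ppargc1a, the gene of PGC-1alpha, read 81.0, 81.0 and 101 in the GFP arrays and 2295, 2183 and 2554 in the PGC-1alpha arrays on 1 of its 5 probe sets. Tsc2 read 248, 259 and 278 in vehicle, 182, 217 and 196 in rapamycin (log2 change -0.40, limma adjusted p = 0.00079), 203.1, 219 and 252 in GFP and 237, 233 and 257 in PGC-1alpha arrays, above the array medians. The labels do not place its 1 probe set inside or outside the deleted part, so these values do not check the genotype label. The third GFP array stood apart, with an SD of log2 differences of 0.155 and 0.167 from the other GFP arrays against 0.109 between those 2. The authors normalized the arrays of the drug experiment and those of the adenovirus experiment separately, so levels are compared only inside a batch.

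The TOP tract was sought at the transcription starts of the members, since it is the sequence by which mTORC1 is known to act on them. Promoter windows from RefSeq (GRCm38.p6, 250 bases before to 50 after the start) were matched for 43 of the 49 members. A C at the annotated start followed by at least 4 pyrimidines was found for 7 of the 43 (16.3%), against 3.01% of the 27025 genes in the table. The start windows of those 7 are shown with the tract from the annotated start in capitals, 15 bases before and 15 from the start on.
Rpl14: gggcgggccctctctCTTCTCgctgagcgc
Rpl35: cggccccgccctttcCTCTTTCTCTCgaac
Rpl38: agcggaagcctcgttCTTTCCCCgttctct
Rplp2: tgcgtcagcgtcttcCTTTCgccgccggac
Rps10: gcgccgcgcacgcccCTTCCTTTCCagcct
Rps18: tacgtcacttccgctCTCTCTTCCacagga
Rps27: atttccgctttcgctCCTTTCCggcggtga

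These windows lie at chr9:120571502-120571531 (plus strand) for Rpl14, chr2:39005117-39005146 (minus) for Rpl35, chr11:114668565-114668594 (plus) for Rpl38 and chr7:141447636-141447665 (plus) for Rplp2. Those of the small subunit lie at chr17:27635230-27635259 (minus) for Rps10, chr17:33955651-33955680 (minus) for Rps18 and chr3:90213634-90213663 (minus) for Rps27. With the tract allowed to begin within 5 bases of the start, a search added after the data were seen, 19 of 43 members had one (44.2%), against 21.2% of all genes. An annotated start can differ from the start these cells use, so a missing tract says only that these letters are not at that position.

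The paralogs with the largest changes and Rps19bp1 had no such tract at an annotated start, nor had most of the 43 matched members. Within 5 bases of a start, Rpl22l1 and Rps27l had one, and Rpl7l1 and Rps19bp1 did not. The windows of these paralogs and Rps19bp1 are shown for comparison, with Rps27l at its first annotated start.
Rpl22l1: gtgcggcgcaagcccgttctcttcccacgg
Rpl7l1: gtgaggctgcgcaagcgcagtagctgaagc
Rps27l: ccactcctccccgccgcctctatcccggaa
Rps19bp1: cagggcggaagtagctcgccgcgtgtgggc

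They lie at chr3:28805493-28805522 (plus) for Rpl22l1, chr17:46782642-46782671 (minus) for Rpl7l1, chr9:66946071-66946100 (plus) for Rps27l and chr15:80264292-80264321 (minus) for Rps19bp1. The study's title names YY1, and its core motif CCATNTT was found on either strand of the 300-base windows of 14 of 43 members (32.6%), against 18.2% of all genes. The longer form GCCATNTT, which holds the former, was found for 7 (16.3% against 6.96%): Rpl13a, Rpl22, Rpl22l1, Rpl7l1, Rps19, Rps27 and Rps28. The ETS-type motif CCGGAAGT was found for 9 members (20.9% against 4.31%), GGGCGG for 26 (60.5% against 38.2%) and TATAAA for 6 (14.0% against 15.7%). A match is a description of the letters, not of binding.

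Most core members gave some of the brightest signals on the arrays. The mean log2 intensity was above 12 for 34 of the 49, all core and all in the top 1% of probe sets, while 3 lay below the median level. Rpl41, the smallest protein of the large subunit, read 16916 to 17338 in vehicle and 17434 to 17626 in rapamycin arrays. Rps2, at the mRNA entry, read 13199.8 to 13538 and 13242 to 13546, and Rps28 read 13377 to 13696 and 13850.3 to 14045. The 3 dimmest members were Rps16 (18.6 to 23.4 over the 12 arrays), Rpl3l, the paralog of Rpl3 in striated muscle (19.4 to 30.0), and Rpl39l, the testis paralog of Rpl39 (23.9 to 30.4). Signal depends on the probes, so these values do not rank the mRNAs, and what the Rps16 set detects was not tested. Of the 34 bright members, the median of the SDs of log2 intensity within a group was 0.0190, against 0.0579 for the 15 others.

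Rapamycin was compared with vehicle to ask how mTORC1 inhibition moved these mRNAs. Of the 42 core members 32 differed by less than 0.1 log2 between the groups, as did 24912 of all 45037 probe sets. Among the 42 core members 6 rose and 2 fell, and the largest changes were those of paralogs and Rps19bp1. Of the 49 members 7 rose and 5 fell (24.5%) at an adjusted p under 0.05 (limma, Benjamini-Hochberg over 45037 probe sets), while 25.5% of all probe sets passed, 11.5% raised and 14.0% lowered. In the large subunit 4 rose and 3 fell of 26, with a median log2 change of 0.03, and in the small subunit 3 rose and 2 fell of 23, with a median of 0.05. The median over all probe sets was -0.001. The rapamycin arrays lay entirely above the vehicle arrays for 24 members and entirely below for 10 of the 49, against 18.0% and 19.9% of all probe sets (37.9% in all).

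The values are relative to the other probe sets of the arrays. The 18 bacterial spike control probe sets read higher on the rapamycin arrays, and scaling to them lowers every rapamycin change by 0.19 log2. With that scaling 1 member, Rpl22l1, rose and 12 fell, the median of the 49 was -0.16, and all probe sets gave 1448 raised and 18556 lowered. The call of each small rise below, and the direction of some, depends on the scaling, so each is given with its value under it.

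**Figure D1:**
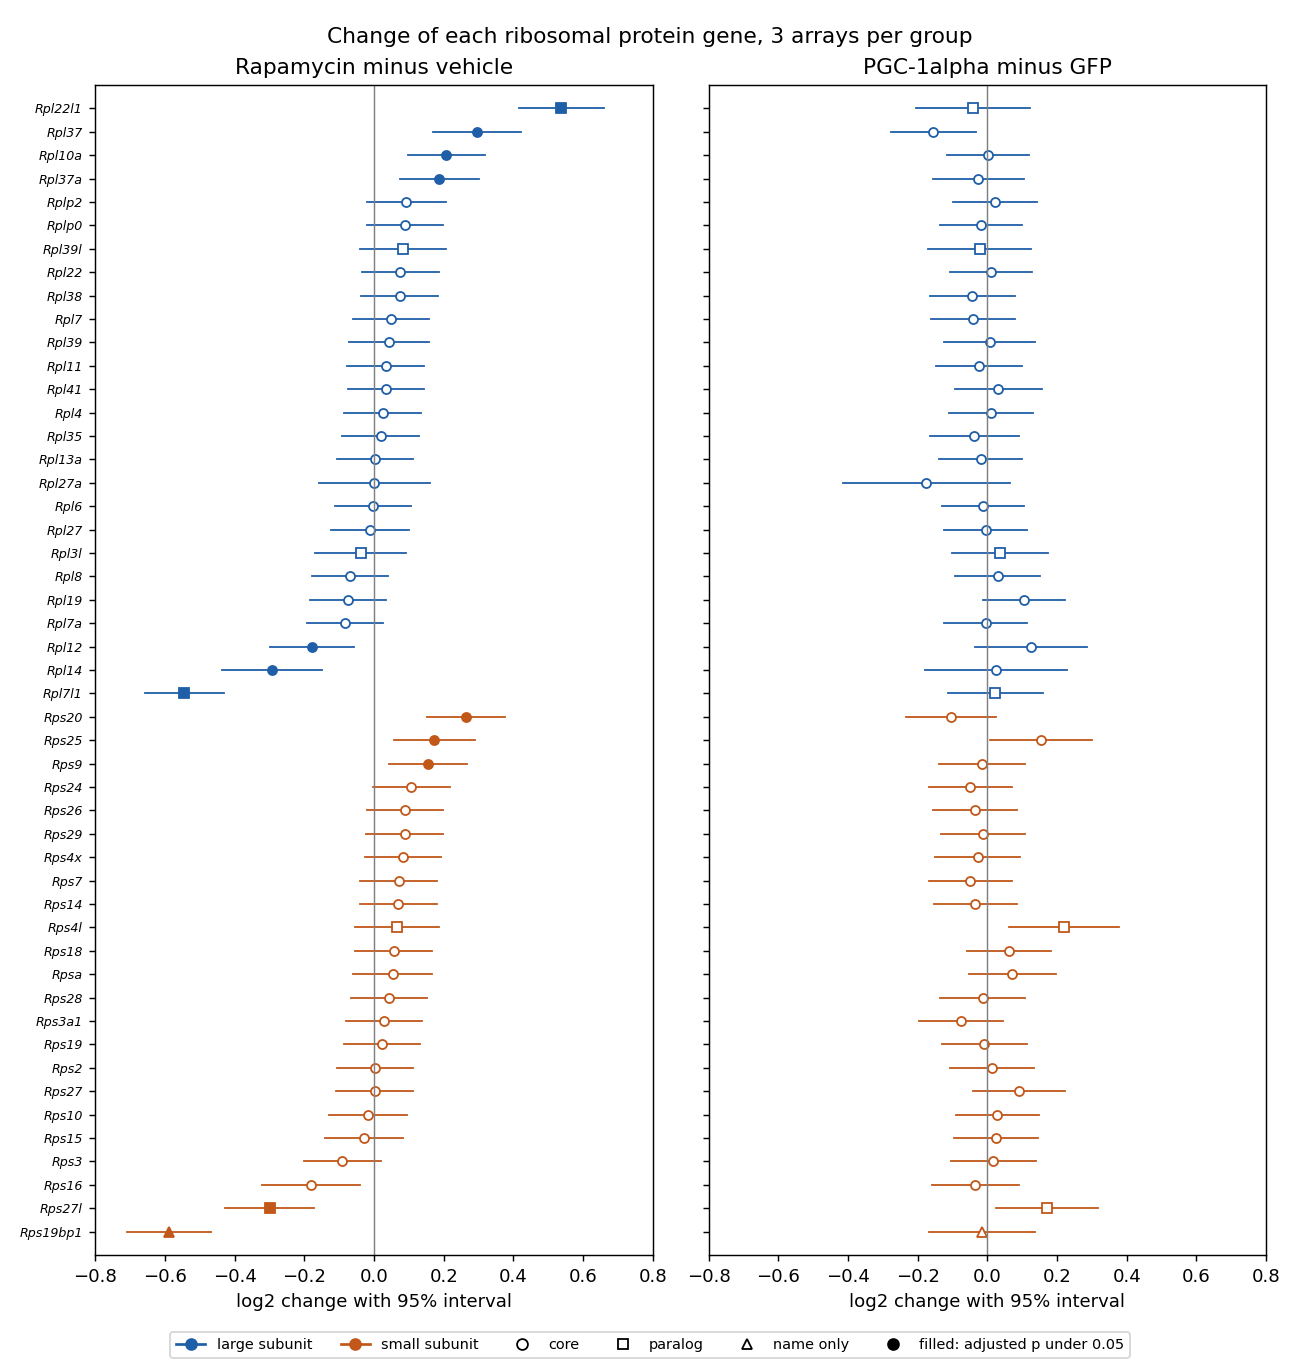
Log2 change of each of the 49 members with its 95% interval, rapamycin minus vehicle (left) and PGC-1alpha minus GFP (right), large subunit in blue and small subunit in orange, filled where the adjusted p was under 0.05. With rapamycin 12 members are filled and range from -0.59 (Rps19bp1) to 0.54 (Rpl22l1); with PGC-1alpha 0 are filled.

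Rpl22l1, the paralog of Rpl22 whose mRNA Rpl22 is known to repress, rose the most. Its intensity was 1745, 1858 and 1914 in the vehicle arrays and 2637, 2617 and 2747 in the rapamycin arrays. Every rapamycin array lay above every vehicle array, a 1.45-fold difference (log2 change 0.54, SE 0.06, limma adjusted p = 1.2e-05). It held under spike scaling (log2 change 0.35) and without any single array.

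Rpl22 itself, which lies near the exit of the nascent chain tunnel, gave different values on its 3 probe sets. The set that stands for it read 9545, 9610.2 and 9609 in vehicle and 10034, 10012 and 10269 in rapamycin arrays, a log2 change of 0.08 (95% interval -0.03 to 0.19) that missed the threshold. The second had a log2 change of -0.02 (SE 0.05). The dimmest read 426, 445 and 406 in vehicle and 795, 790.0 and 815 in rapamycin arrays, 1.88-fold higher (log2 change 0.91, SE 0.06, limma adjusted p = 2.5e-07). That set was singled out after its values were seen; what it detects that the brighter sets do not was not tested. The same set read 398, 384 and 452 with GFP and 404, 400.3 and 375 with PGC-1alpha, groups that overlap.

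Rpl7l1, the paralog of Rpl7, fell. It read 1179.6, 1205 and 1158 in vehicle and 801, 829.8 and 798 in rapamycin arrays, a log2 change of -0.54 (SE 0.05, limma adjusted p = 6.2e-06). All its rapamycin arrays lay below its vehicle arrays, and all 3 of its probe sets fell, by 0.41 to 0.75 on the log2 scale. Rpl7, the core protein, had a log2 change of 0.05 (95% interval -0.06 to 0.16).

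Rps27l, the paralog of Rps27 known as a p53 target, fell as well. It read 3594, 3716 and 3838 in vehicle and 2848, 3009.9 and 3205 in rapamycin arrays, without overlap (log2 change -0.30, SE 0.06, limma adjusted p = 0.0019). All 3 of its probe sets fell. Rps27 had a log2 change of 0.00 (95% interval -0.11 to 0.11) on a probe set with a mean log2 intensity below 12.

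Rps19bp1, which binds Rps19 and the deacetylase SIRT1, had the largest fall. It read 746, 747 and 693 in vehicle and 469, 486 and 497 in rapamycin arrays (log2 change -0.59, SE 0.06, limma adjusted p = 5.7e-06). The groups did not overlap. Rps19 read 6565, 6419 and 6470.2 in vehicle and 6516, 6620.4 and 6619 in rapamycin arrays, which overlap (log2 change 0.02, 95% interval -0.09 to 0.13). Of the paralogs and Rps19bp1 together, 1 rose and 3 fell of 7. The remaining 3, Rpl3l, Rpl39l and Rps4l, changed by -0.04 to 0.08 log2 without passing, 2 of them on sets below the median level.

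**Figure D2:**
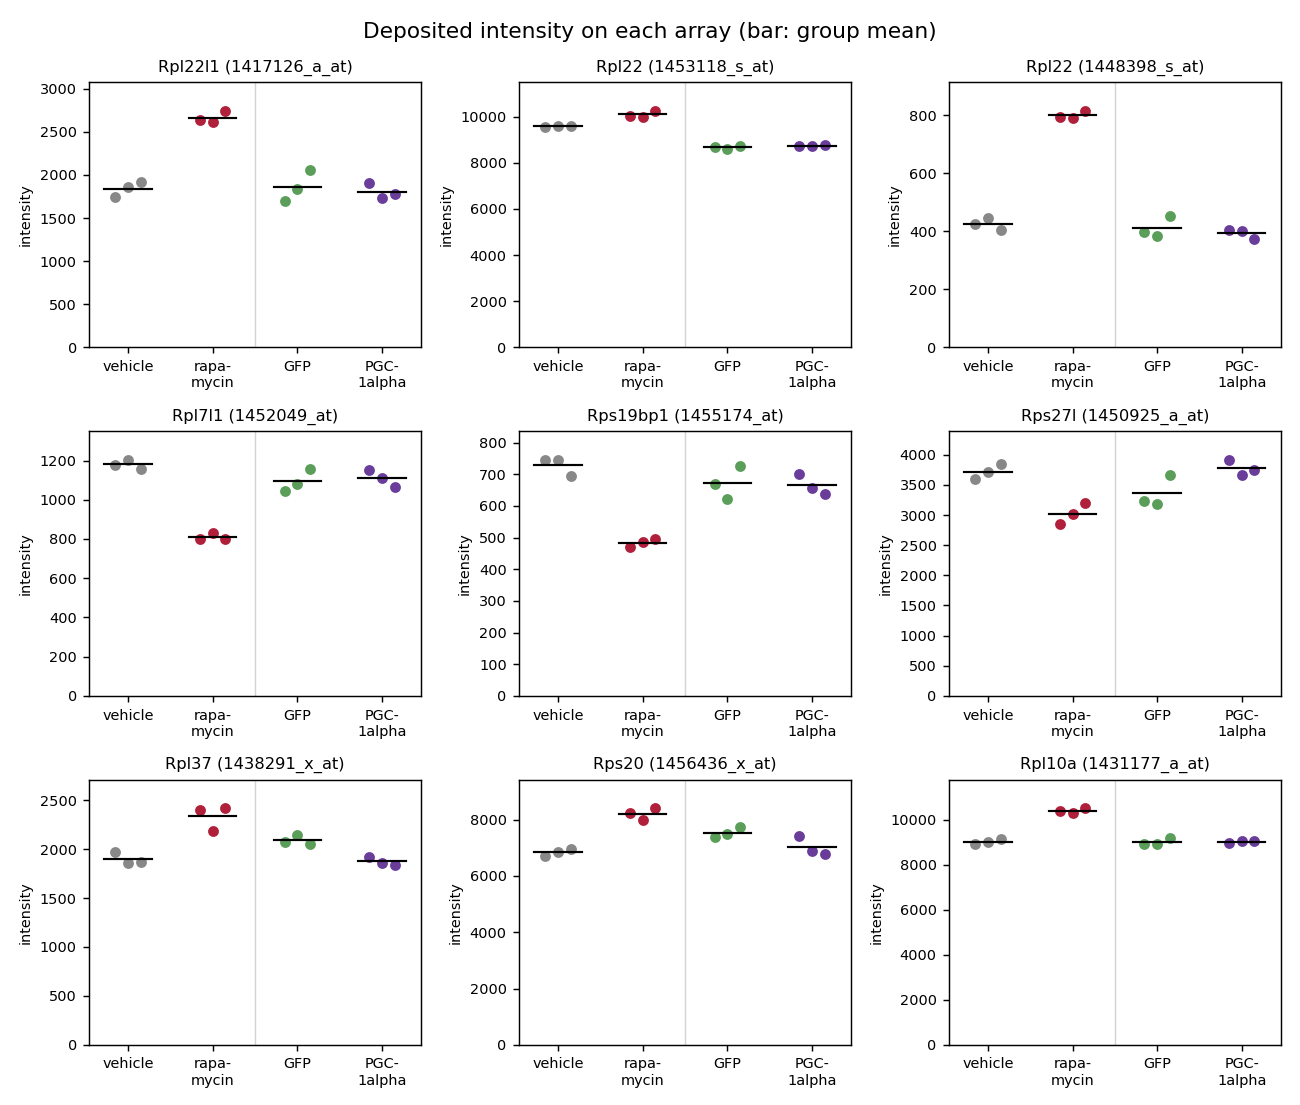
Deposited intensity on each of the 12 arrays for 8 members, with Rpl22 on its brightest and its dimmest probe set; points are arrays, bars group means, and the line separates the 2 normalization batches. Rapamycin arrays sit apart from vehicle arrays for Rpl22l1 and the dim Rpl22 set (above) and for Rpl7l1, Rps19bp1 and Rps27l (below), while the brightest Rpl22 set differs by 0.08 log2.

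Among the core members of the large subunit, Rpl37, Rpl10a and Rpl37a rose. Rpl37, at the tunnel exit, read 1969.5, 1862 and 1874 in vehicle and 2398, 2189 and 2417 in rapamycin arrays (log2 change 0.29, SE 0.06, limma adjusted p = 0.0019). Rpl10a, the protein of the L1 stalk that guides the leaving tRNA, read 8902, 8987 and 9117 against 10386, 10306 and 10496 (0.21, SE 0.05, limma adjusted p = 0.0079). In both, each rapamycin array exceeded each vehicle array. Rpl37a read 9342, 9506 and 9605 against 10769, 10477 and 11161 (log2 change 0.19, SE 0.05, limma adjusted p = 0.018), and a second bright set also rose while a dim one gave 0.02. Rpl37a lost its call when rapamycin array 3, vehicle array 1 or vehicle array 2 was left out (limma adjusted p up to 0.089). Under spike scaling Rpl37 changed by 0.11, Rpl10a by 0.02 and Rpl37a by -0.00 log2, and the 3 did not pass.

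Rpl14 and Rpl12 fell on probe sets outside the bright range, though above the median level of the table. Rpl14, on the outer face of the large subunit, read 274, 239.9 and 232 in vehicle and 195, 204 and 208 in rapamycin arrays (log2 change -0.29, SE 0.07, limma adjusted p = 0.0049). Rpl12, at the base of the stalk where translation factors dock, read 294, 288 and 276 against 244, 264 and 251 (-0.18, SE 0.06, limma adjusted p = 0.032). Neither gene's groups overlapped. The Rpl12 call was lost without rapamycin array 1 or 3 or vehicle array 1 or 2 (limma adjusted p up to 0.12), in the fit over 12 arrays (0.059) and with quantile normalization over 12 arrays (0.056).

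In the small subunit Rps20, Rps25 and Rps9 rose. Rps20, in the head of the subunit, read 6714, 6850.1 and 6951 in vehicle and 8235, 7997 and 8404 in rapamycin arrays (log2 change 0.26, SE 0.05, limma adjusted p = 0.0019). Its other bright set also rose, and its 2 dim sets gave -0.10 and -0.02; the mean of its sets (0.10, limma adjusted p = 0.13) did not pass. Rps25, which some viral internal ribosome entry sites need, read 717, 746 and 763 against 815, 845 and 848 (log2 change 0.17, SE 0.05, limma adjusted p = 0.029). Rps9, near the mRNA entry, read 6851, 6637 and 6569 against 7432, 7550.0 and 7357 (log2 change 0.16, SE 0.05, limma adjusted p = 0.042). The groups of the 3 genes did not overlap. The other Rps9 sets gave 0.17 and, on the set without a shared-probe suffix, -0.22 log2 (limma adjusted p = 0.073 and 0.054), and the mean of its sets gave 0.03 (limma adjusted p = 0.67). Leaving out any array ended the Rps9 call (limma adjusted p 0.069 to 0.12), and leaving out rapamycin array 2 or 3 or vehicle array 1 or 2 ended that of Rps25 (up to 0.13). Under spike scaling Rps20 changed by 0.07, Rps25 by -0.02 and Rps9 by -0.03 log2, and the 3 did not pass.

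The remaining 19 members of the large subunit changed by -0.08 to 0.09 log2 and did not pass. Of the stalk proteins, which recruit the translation factors, Rplp0 read 12250.0, 12130.2 and 12012 in vehicle and 12996, 12725 and 12970.2 in rapamycin arrays. The groups did not overlap, but the difference (0.09, 95% interval -0.02 to 0.20) missed the threshold, as did that of Rplp2 (0.09). Rpl11, which joins the 5S RNP and binds Mdm2, read 7819, 7638 and 7621 against 7807, 7887 and 7928, with overlap (0.03, 95% interval -0.08 to 0.14). Around the tunnel exit, Rpl19 had -0.07, Rpl35 0.02, Rpl38 0.07 and Rpl39 0.04 log2. The others were Rpl4, Rpl6, Rpl7, Rpl7a, Rpl8, Rpl13a, Rpl22, Rpl27, Rpl27a, Rpl41, Rpl3l and Rpl39l. In a fit whose prior variance followed intensity (an intensity trend), Rplp0 and Rplp2 passed as raised and Rpl7a as lowered. How many of all probe sets passed in that fit was not counted.

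The remaining 18 of the small subunit changed by -0.18 to 0.11 log2. Rps16 had the lowest value of them, on the dimmest set of all (-0.18, limma adjusted p = 0.057). Of genes mutated in Diamond-Blackfan anaemia, Rps7 had 0.07, Rps10 -0.02, Rps19 0.02, Rps24 0.11 and Rps26 0.09 log2, and none of the 5 passed. At the mRNA entry Rps2 had 0.00 and Rps3 -0.09 log2 (95% interval -0.20 to 0.02). Rpsa, Rps3a1, Rps4x, Rps14, Rps15, Rps18, Rps27, Rps28, Rps29 and Rps4l make up the rest. With an intensity trend Rps24, Rps26 and Rps29 passed as raised and Rps3 and Rps16 as lowered.

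The bright members bound the change slightly more tightly than the 15 others, with a median SE of 0.051 against 0.056 log2. Whether their signal was saturated was not checked. Of the 34 above a mean log2 of 12, 4 rose and 0 fell, the changes ran from -0.09 to 0.26, and for 30 the 95% interval lay within 0.25 log2 of 0. Of the 342 other probe sets above 12, 45 rose and 103 fell (43.3%). Under spike scaling 0 of the 34 rose and 5 fell, with a median of -0.14. With an intensity trend, Rpl10a, Rpl37a, Rplp0, Rplp2, Rps20, Rps24, Rps26, Rps29 and Rps9 of the 34 rose, and Rpl7a and Rps3 fell. How many other probe sets, bright or not, passed in that fit was not counted. Of the 7 members whose annotated start has the tract shown above, Rpl14 fell and the other 6 did not pass, with log2 changes of -0.02 (Rps10) to 0.09 (Rplp2).

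**Figure D3:**
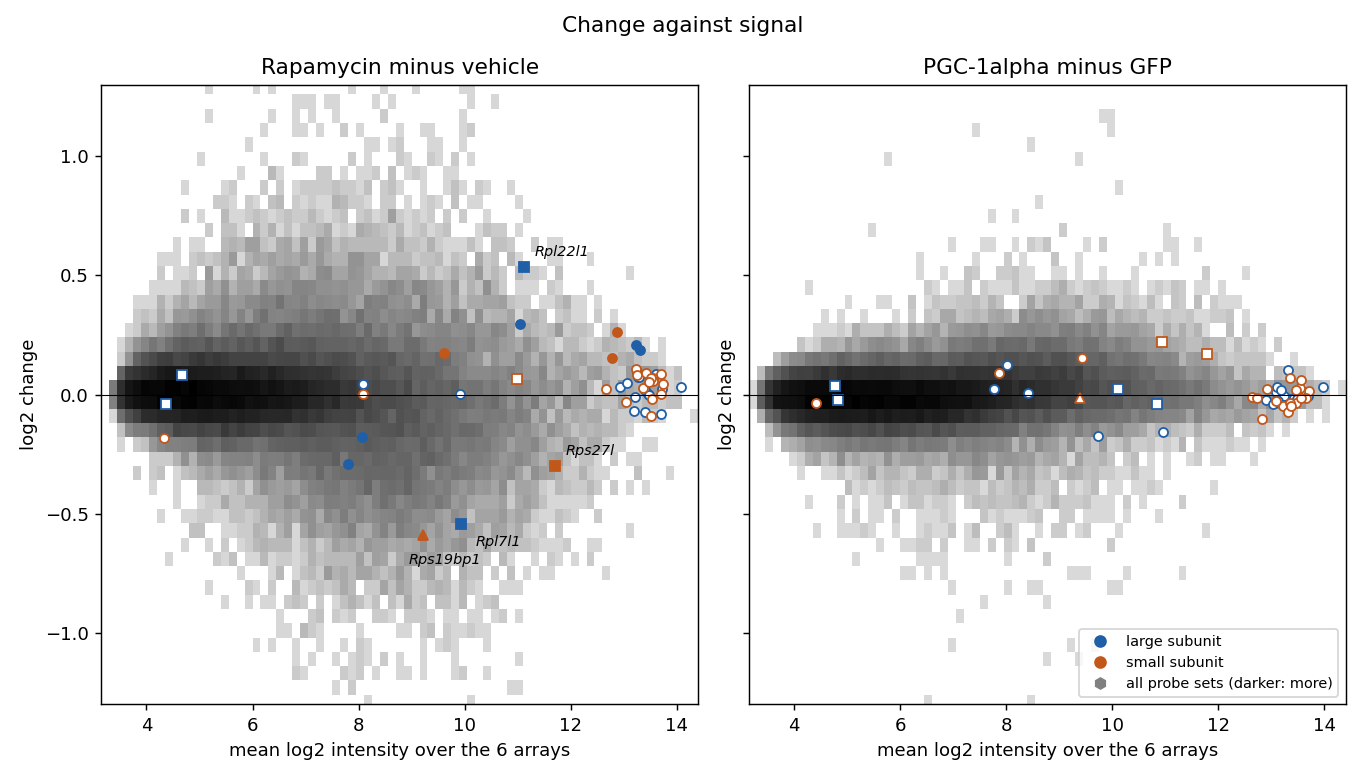
Log2 change against mean log2 intensity over the 6 arrays of each comparison, with all probe sets as grey density (those beyond the axis limits not drawn) and the 49 members as points, filled where the adjusted p was under 0.05. The 34 bright members lie right of 12 and between -0.09 and 0.26 with rapamycin; the named paralogs and Rps19bp1 lie left of them, farther from 0.

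Probe sets of a gene did not always agree. Of the 49 members 23 had several sets, up to 6. Sets that did not stand for their gene rose with rapamycin for Rps24 (1 of its 6 sets, 0.25 log2) and for Rps3 (1 of 3, 0.21, while its brightest had -0.09), and dim sets fell for Rps18 (-0.21) and Rpl41 (-0.17). A further 101 probe sets list several symbols with a ribosomal protein among them and are named for none. With rapamycin 13 of these rose and 5 fell, with a median of 0.06 log2, and with PGC-1alpha 0 rose and 0 fell, with a median of -0.02. Such sets, and the 32 of 49 representative sets whose suffix marks shared probes, may also read processed pseudogenes, so values of single genes are uncertain.

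PGC-1alpha was compared with GFP to ask whether the coactivator moved these mRNAs. It moved none of them past the threshold: 0 of 26 large and 0 of 23 small subunit members rose or fell in limma (0.997% of all probe sets rose and 0.955% fell, 1.95% in all). At an unadjusted p under 0.05 there were 4 of 49 (3 higher, 1 lower), or 8.16%, against 11.6% of all probe sets. The smallest adjusted p was 0.19. The medians were -0.01 log2 in the large and -0.01 in the small subunit, and the 95% interval lay within 0.25 log2 of 0 for all 34 bright members. The PGC-1alpha arrays lay entirely above the GFP arrays for 6 members and entirely below for 4, against 7.76% and 7.91% of all probe sets. Under spike scaling every change in this comparison is higher by 0.17 log2, and 0 members passed. Of all probe sets 296 rose and 29 fell under it. The SE was larger with that scaling, for Rps4l 0.14 log2 against 0.07, so it could detect less.

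Rps4l, a paralog of Rps4x, came nearest. It read 1781, 1668 and 2026 with GFP and 2174, 2067 and 2121 with PGC-1alpha, without overlap (log2 change 0.22, 95% interval 0.06 to 0.38, limma adjusted p = 0.19). Rps27l read 3227, 3190.3 and 3661 with GFP and 3919.8, 3671 and 3741 with PGC-1alpha, again without overlap (0.17, 95% interval 0.03 to 0.32, limma adjusted p = 0.31). In both genes the third GFP array, which stood apart, was the highest of its group. Without it both rose, Rps4l by 0.30 log2 (limma adjusted p = 0.011) and Rps27l by 0.23 (limma adjusted p = 0.031).

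Rps25 read 603, 658 and 712 with GFP and 740.0, 718 and 732 with PGC-1alpha (0.15, 95% interval 0.01 to 0.30, limma adjusted p = 0.39). Rpl37 was lower in each PGC-1alpha array (1923, 1862 and 1842) than in each GFP array (2073, 2148 and 2049), with a log2 change of -0.16 (95% interval -0.28 to -0.03, limma adjusted p = 0.25) that under spike scaling was 0.01. Rpl22l1 read 1694, 1838 and 2053 with GFP and 1910.2, 1732 and 1775 with PGC-1alpha, which overlap (-0.04, 95% interval -0.20 to 0.12). Rpl7l1 (0.02) and Rps19bp1 (-0.01) also overlapped between these groups.

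The difference between the rapamycin and PGC-1alpha effects was tested in a limma fit over the 12 arrays. It passed for 8 of the 49 members (16.3%), against 20.7% of all probe sets. The rapamycin effect was higher for 4 members (8.7% of all probe sets), Rpl22l1 (difference 0.58 log2, SE 0.10), Rpl37 (0.45), Rps20 (0.37) and Rpl10a (0.21). It was lower for 4 (12.0% of all probe sets), Rps19bp1 (-0.57, SE 0.09), Rpl7l1 (-0.57, SE 0.08), Rps27l (-0.47) and Rpl12 (-0.30). Limma adjusted p ran from 3.3e-05 (Rpl7l1) to 0.043 (Rpl10a). Rpl10a lost its call without any 1 of the 12 arrays (limma adjusted p 0.053 to 0.092) and with a replicate block (0.081). Rpl12 lost it without GFP array 2, PGC-1alpha array 1, rapamycin array 1 or 3, or vehicle array 1 or 2 (limma adjusted p up to 0.088). With spike scaling 0 differences were higher with rapamycin and 15 lower. That scaling lowers every rapamycin change by 0.19 log2 and raises every PGC-1alpha change by 0.17. Differences called over all probe sets were not counted under it, so the 15 cannot be set against a background.

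Genes that work with these proteins were set beside them, as lists without a set test. Over all probe sets 11.5% rose and 14.0% fell with rapamycin. Of the assembly factors of the large subunit 3 rose and 23 fell with rapamycin of 29, with a median of -0.47 log2. Wdr12 (-1.08, SE 0.06) and Bop1 (-0.73, SE 0.06), partners in the PeBoW complex, fell, as did Ebna1bp2 (-0.75) and the rRNA methyltransferase Nop2 (-0.71), while Nop53 rose by 0.25. Of the assembly factors of the small subunit 0 rose and 19 fell of 23, with a median of -0.56. Utp20 (-0.85, SE 0.06), Heatr1 (-0.79), Bysl (-0.76) and Noc4l (-0.72) had the largest falls. Of the chaperones and import receptors that escort new ribosomal proteins, 0 rose and 11 fell of 13, with a median of -0.41. Grwd1, a chaperone of Rpl3, fell by 0.87 log2 (SE 0.06), Heatr3 by 0.77, the importin Kpnb1 by 0.72 and Tsr2, a chaperone of Rps26, by 0.72.

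Other TOP mRNAs encode mostly translation factors. Of 16, 3 rose and 4 fell with rapamycin (11.5% and 14.0% of all probe sets), with a median of 0.03 log2. Eef1d, an exchange factor of elongation, fell by 0.34 (SE 0.05) and Nap1l1, a histone chaperone, by 0.33. Eef2, the translocase of elongation, rose by 0.24 (SE 0.05) and Eef1b2 by 0.22. Fau, which encodes a small subunit protein fused to a ubiquitin-like one, had -0.01 (95% interval -0.12 to 0.10). Of the 76 mitochondrial ribosomal proteins, 2 rose and 54 fell, with a median of -0.33, led by Mrps22 (-0.84), while Mrpl23 rose by 0.31. Under spike scaling the counts of risen and fallen were 0 and 25 for large subunit assembly and 0 and 22 for small subunit assembly. They were 0 and 12 for chaperones, 0 and 6 for other TOP mRNAs and 0 and 69 for the mitochondrial ribosome. Of all 45037 probe sets 1448 rose and 18556 fell under that scaling.

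With PGC-1alpha the cytosolic lists gave 0 risen and 0 fallen. The medians were 0.03 log2 for large subunit assembly, 0.04 for small subunit assembly, 0.03 for chaperones and 0.02 for other TOP mRNAs. The smallest p-values belonged to Bop1 (0.24 log2, limma adjusted p = 0.090) and Nop2 (0.18) of the large subunit factors and to Riok1 (0.24, limma adjusted p = 0.091) and Nob1 (0.22) of the small subunit factors. Of the 76 mitochondrial ribosomal proteins 7 rose (9.21%) and 0 fell, against 0.997% and 0.955% of all probe sets, with a median of 0.12. Among the 7 were Mrps35 (0.45, SE 0.09) and Mrpl12 (0.43, SE 0.07).

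**Figure D4:**
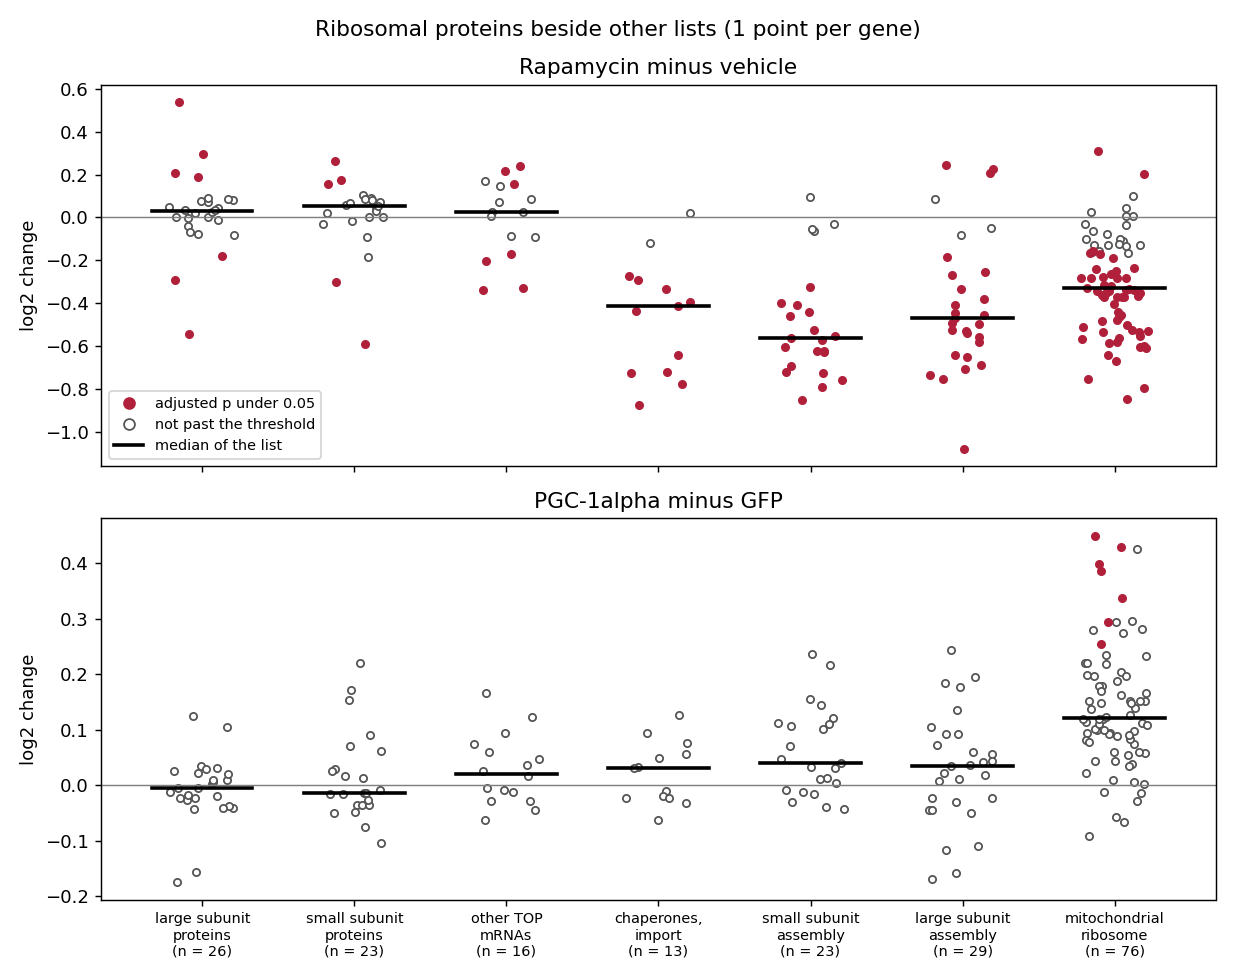
Log2 change of each gene in the 2 subunits and 5 other lists, 1 point per gene, red where the adjusted p was under 0.05, with the median of each list as a bar; the panels have different vertical scales. With rapamycin the subunits have medians of 0.03 and 0.05, and the assembly and chaperone lists -0.41 to -0.56; with PGC-1alpha only the mitochondrial ribosome has red points.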

How the data were processed

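Total RNA of the 12 samples was hybridised to Affymetrix MOE430 v2 arrays. The authors deposited an intensity per probe set, made with RMA at default settings in BioConductor 1.2, with 1 batch per experiment, per the series' design text. No source used here names their scale. Since they span 9.299 to 21072.43, they were taken as linear, and log2 was computed with no pseudocount. RMA makes the arrays of a batch alike in distribution, so changes are relative to other probe sets. Of 45101 probe sets, 64 controls were left out and 45037 tested; the platform annotation gives 34945 of these 1 symbol, 932 several and 9160 none.

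Limma 3.58.1 in R 4.3.3 was run on the 6 arrays of each comparison, two-sided, with Benjamini-Hochberg adjustment over all 45037 and a threshold of 0.05. SE is limma's moderated standard error. The fit was tested on simulated data. Alternatives were spike scaling, quantile normalization over 12 arrays, sets at or below the median level left out and a pseudocount of 16. Further ones were other probe sets, a 12-array fit, an intensity trend, a replicate block and each array left out. No detection or saturation flags were used, and precision is limited by the number of arrays.

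The members, lists and tests were chosen with earlier results of these data known. All members could be named; in detail those past the threshold (the 8 largest each way at most), the 3 brightest and dimmest, and members with set roles (stalk, 5S RNP, tunnel exit, mRNA entry, paralogs, Diamond-Blackfan anaemia). Of each other list, up to 4 past the threshold with the largest change and the largest opposite one were named, or the 2 with the smallest p where none passed.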

Additional observations from a re-analysis of the deposited data

How the results depend on the processing

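Rpl22l1, Rpl7l1, Rps19bp1, Rps27l and Rpl14 kept their direction and their call under every alternative run for them. Rpl22l1 and Rps27l have no set free of a shared-probe suffix, so that alternative could not be run for them. Spike scaling gave, with rapamycin, 1 raised, 7 lowered and a median log2 change of -0.16 in the large subunit, and 0 raised, 5 lowered and a median of -0.14 in the small. It turned Rpl37a (-0.0017), Rps25 (-0.016) and Rps9 (-0.033) around. With PGC-1alpha it gave medians of 0.16 and 0.16, and for the difference of effects 0 higher and 7 lower (large) and 0 higher and 8 lower (small). Differences over all probe sets were not counted under spike scaling. With sets free of shared-probe suffixes (13 members per subunit), rapamycin gave 0 raised and a median of -0.0385 (large), 1 lowered and a median of -0.0745 (small), Rps20 at -0.10 and Rps9 at -0.22; the PGC-1alpha median of the small subunit was 0.0287. An intensity trend gave 12 raised and 8 lowered of 49 with rapamycin, 6 and 4 in each subunit. It gave 7 higher differences, 3 of them in the small subunit, and 5 lower. Calls over all probe sets were not counted under it. The mean of probe sets gave 1 raised in the small subunit, and quantile normalization over 12 arrays a median of 0.0288 there.

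Leaving out each array gave, with rapamycin, 3 to 4 raised and 2 to 3 lowered (large) and 1 to 2 raised and 2 to 3 lowered (small), with medians of 0.0201 to 0.0338 and 0.0371 to 0.0633. With PGC-1alpha it gave 0 to 2 raised in the small subunit, 2 without the third GFP array, with medians there of -0.0297 to 0.0052. Differences gave 2 to 3 higher and 1 to 3 lower (large) and 1 higher and 2 to 3 lower (small). A replicate block gave 6 raised and 6 lowered of 49 with rapamycin, losing Rps9 (limma adjusted p = 0.064) and adding Rps16, and 0 with PGC-1alpha. Same-numbered arrays correlated at -0.05, 0.07 and 0.00 (rapamycin) and -0.13, 0.23 and -0.01 (PGC-1alpha), so the numbers were not taken as pairs.

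With 3 arrays a group, changes of members outside the bright range are bounded slightly more loosely. Their median SE with rapamycin was 0.056 log2, against 0.051 for the bright members. The 95% interval lay within 0.25 log2 of 0 for 3 of the 8 core members at or below 12 with rapamycin. As 4 of these 8 passed the threshold, that count reflects the size of the changes as well as their precision. Where a value moved, the cause was not tested.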
